A study of Mus musculus with 5 samples.

Results

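The genes described here are 47 genes of the DNA damage response and DNA repair, out of 35976 gene rows in a table of read counts from mouse haematopoietic stem cells (HSCs). They were chosen by symbol as genes of these pathways, with earlier results of these data known, and all 47 symbols were found. The study set HSCs of mice that lack Ythdf3, which encodes a reader protein of the RNA mark N6-methyladenosine, beside those of wild-type (WT) mice. For each library 30 cells were sorted from bone marrow by a gate for CD150, c-kit and Sca-1 that left out cells with CD34 or lineage markers, and amplified by Smart-seq2, which copies full-length cDNA from few cells. There were 5 libraries, each of a different C57BL/6 mouse, and the labels call 2 of them WT and 3 of them Ythdf3-/-. The labels name no treatment, age or second allele for either genotype.

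A cell answers a DNA break in steps. The kinases ATM and ATR sense the damage and mark the histone variant H2AX beside it, CHEK1 and CHEK2 carry the signal on, and p53, kept low by MDM2 and MDM4, switches on genes of arrest or death. Double-strand breaks are then joined by homologous recombination, which copies the sister chromatid, or by end joining, which does not need one. Crosslinks go to the Fanconi anaemia pathway, bulky lesions to nucleotide excision repair, small base damage to base excision repair and copying errors to mismatch repair. HSCs are mostly quiescent, a state in which the sister chromatid is missing and end joining is the route available. Defects in Fanconi, end joining and nucleotide excision genes are known to wear out the stem cell pool.

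Library totals ran from 6357862 counts to 16650134 counts, so that 1 count was worth between 0.0601 and 0.157 CPM, the count scaled to a common library total. The check of the labels comes first. Under the label WT, Ythdf3 was read 20 and 29 times, and 2, 339 and 366 times in those labelled Ythdf3-/- 1, 2 and 3. The labels therefore do not follow the counts of the deleted gene, and the series text in turn counts 3 WT and 2 knockout samples against 2 and 3 in the labels. Where in Ythdf3 the deletion lies is not given in the sources used here. Every direction below refers to the labels alone, and libraries are named as labelled. Of 12 HSC markers, between 11 and 12 were read above 3 counts in each library. Slamf1, the gene of the CD150 used in the gate, had 1 count in the library labelled WT 2 and between 211 and 482 in the others. Fgd5 had 2 counts in that labelled Ythdf3-/- 1. The erythroid markers summed to 37850 CPM in the library labelled Ythdf3-/- 1 and to between 1973 and 3188 CPM in the others, a sum carried by the globin genes. Other erythroid markers stood apart in the library labelled WT 2: Gata1, Klf1, Car1 and Ermap were at 118, 169, 456 and 143 CPM there and at 0.157, 1.42, 3.78 and 0.157 CPM in that labelled Ythdf3-/- 1. B cell markers summed to 1562 CPM in that same library and to between 58.9 and 604 CPM elsewhere. Of 8 T and NK cell markers, Cd3d, Cd3g, Cd8a and Cd4 were at 0 in all 5 libraries. Lck, Nkg7 and Klrb1c of that list were read. Its sums were 2.28 and 10.4 CPM under WT and 93.1, 92.9 and 30.5 CPM under Ythdf3-/-. Summed over 24 proliferation markers, the libraries labelled WT 2 and Ythdf3-/- 1 held 2337 and 1835 CPM, and the other 3 held between 600.1 and 1072 CPM. The largest in that labelled Ythdf3-/- 1 were Mcm6, Mcm7, Mcm5 and Rrm2, at 388, 307, 238 and 224 CPM. Ccnb2, Tk1 and Cdca8 were at 184, 131 and 97.1 CPM in that labelled WT 2 but at 0, 0.629 and 0 CPM there. Mki67 and Top2a were read in both. Of 21 proliferation markers tested, 19 were fitted lower under Ythdf3-/- and 2 higher (median log2 fold change -1.31). In such small bulk samples, fewer cells with a transcript and less of it per cell cannot be told apart.

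Nearly all of the repair machinery was read somewhere, but much of it not in every library. Above a floor of 3 counts, both libraries labelled WT held 42 and 38 of the 47 genes, and those labelled Ythdf3-/- 1, 2 and 3 held 38, 38 and 36. Thinned to the total of the smallest library, the numbers were 40, 37, 38, 38 and 35 in the same order. In all 5 libraries 29 genes passed the floor, and 3 passed it in none: Brca1, Rad51c and Fancd2. The members therefore differ in how often they were read at all, and the plot of members above the floor shows this by pathway.

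**Figure D1:**
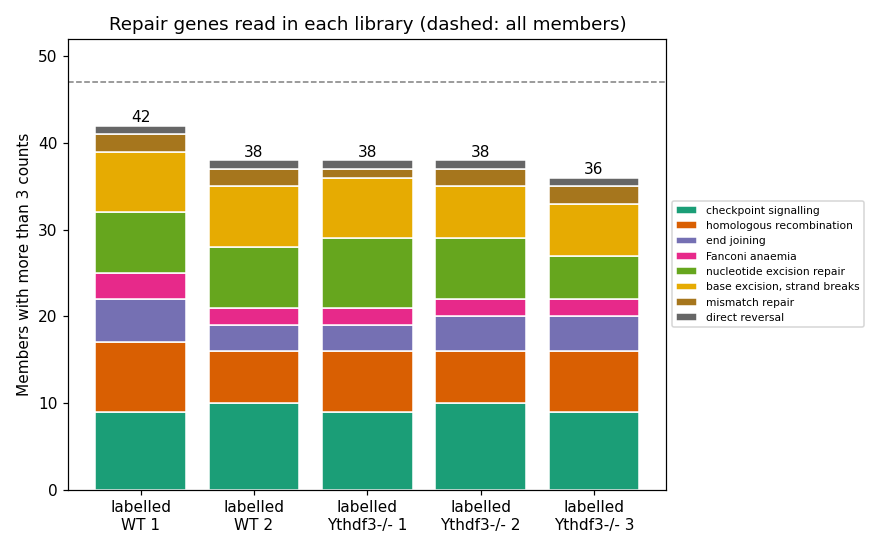
Number of member genes with more than 3 counts in each of the 5 libraries, stacked by pathway, with the number on top of each bar. The bars reach 42, 38, 38, 38 and 36, and the dashed line marks all 47 genes.

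Per kilobase of merged exon, the highest mean levels over the 5 libraries belonged to Apex1 at 210.8, Trp53 at 133.6 and H2afx at 111.3 CPM per kilobase. Parp2 and Xrcc6 followed at 34.7 and 29.7 CPM per kilobase. At the low end stood Fanca at 0.925, Chek1 at 0.899, Palb2 at 0.0600 and Lig4 at 0.0389 CPM per kilobase. For Apex1, the endonuclease of base excision repair, 61.7% of the exon length is shared with exons of Pip4p1 on the other strand, so that its place in this order is uncertain.

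Levels varied widely from library to library. Among the 29 members above the floor in all 5 libraries, the highest CPM was a median of 8.01 times the lowest, against 5.18 times for all genes above it in every library. Rad50, which forms the break-sensing complex with MRE11 and NBN, was the steadiest at 1.51-fold, and Pms2 the least steady at 422.6-fold. The plot of levels in each library shows that spread gene by gene.

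**Figure D2:**
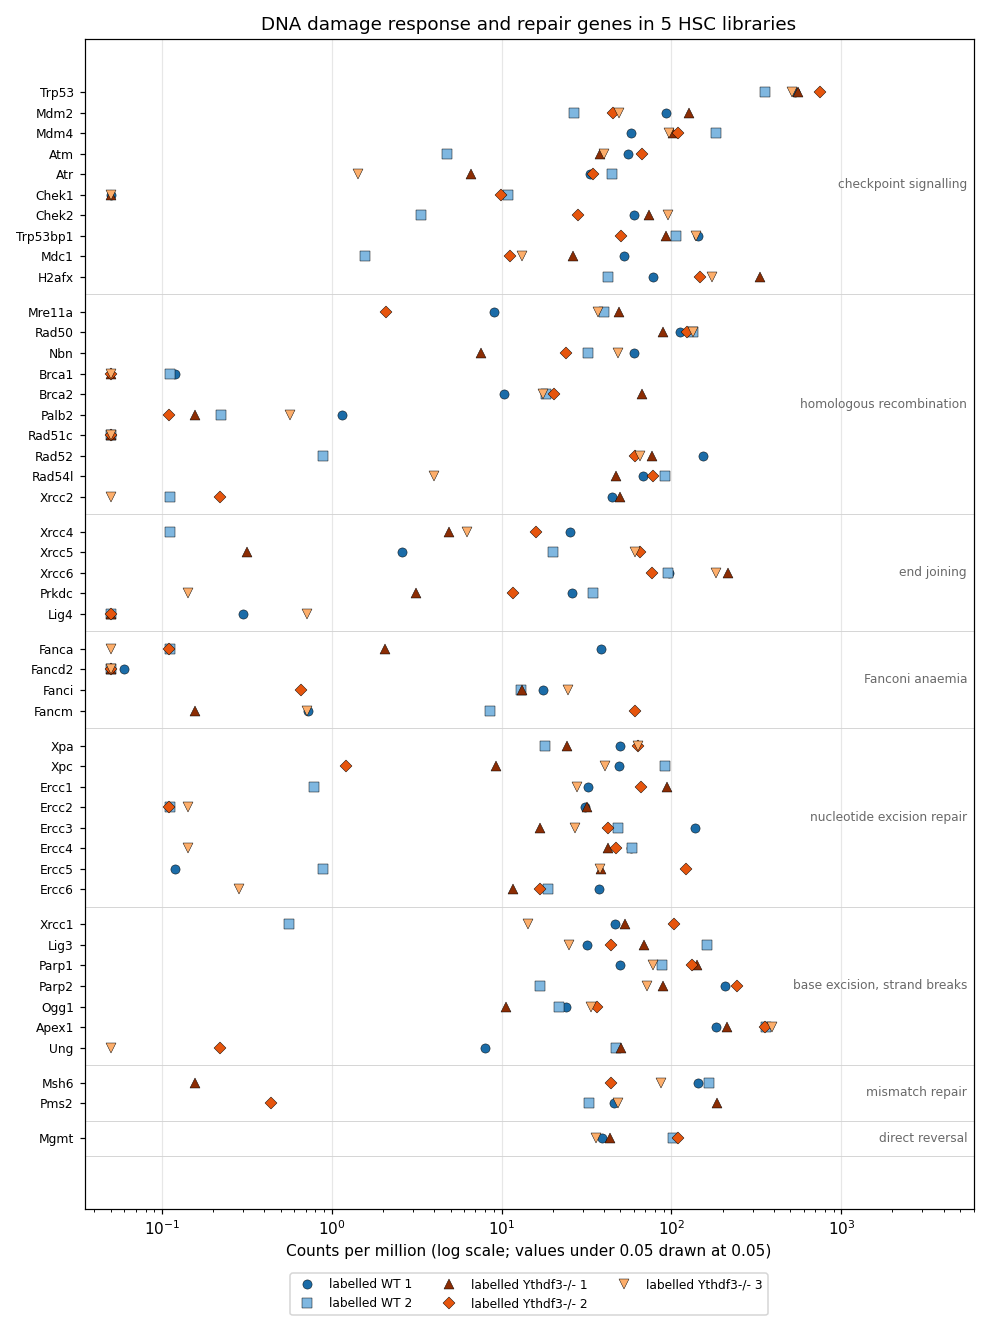
CPM of each of the 47 genes (log axis) in the 5 libraries, with one symbol per library and the genes grouped by pathway; values under 0.05 are drawn at 0.05. Trp53, Apex1 and Rad50 keep their symbols close together, whereas Rad52, Xrcc1 and Pms2 each have 1 library far below the others.

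A test of the labels was possible for 42 of the 47 genes. Brca1, Palb2, Rad51c, Lig4 and Fancd2 did not pass the filter on low counts. No member passed an adjusted p of 0.05 in edgeR's quasi-likelihood test, as no gene of the 11146 tested did (0%), nor did any in limma voom. Before adjustment 2 of 42 members (4.76%), H2afx and Ercc5, were under 0.05, against 541 of all genes tested (4.85%), so that the members' share was no larger than the background. DESeq2, run as an alternative, called 1 member (2.38%), Ercc5, against 259 of all genes (2.32%). The libraries of the labels did not overlap for 8 members (19.0%), against 20.7% of all genes. Of these, 2 were higher under the label Ythdf3-/- (H2afx and Ercc5, against 9.74% of all genes) and 6 were lower (Prkdc, Xpc, Ercc3, Ercc4, Ercc6 and Msh6, against 11% of all genes). Fitted log2 fold changes, given here as the label Ythdf3-/- over the label WT, were below 0 for 23 members (54.8%) and for 52.2% of all genes. Their median was -0.25 for the members and -0.06 for all genes tested. The common biological coefficient of variation in this fit was 1.26.

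**Figure D3:**
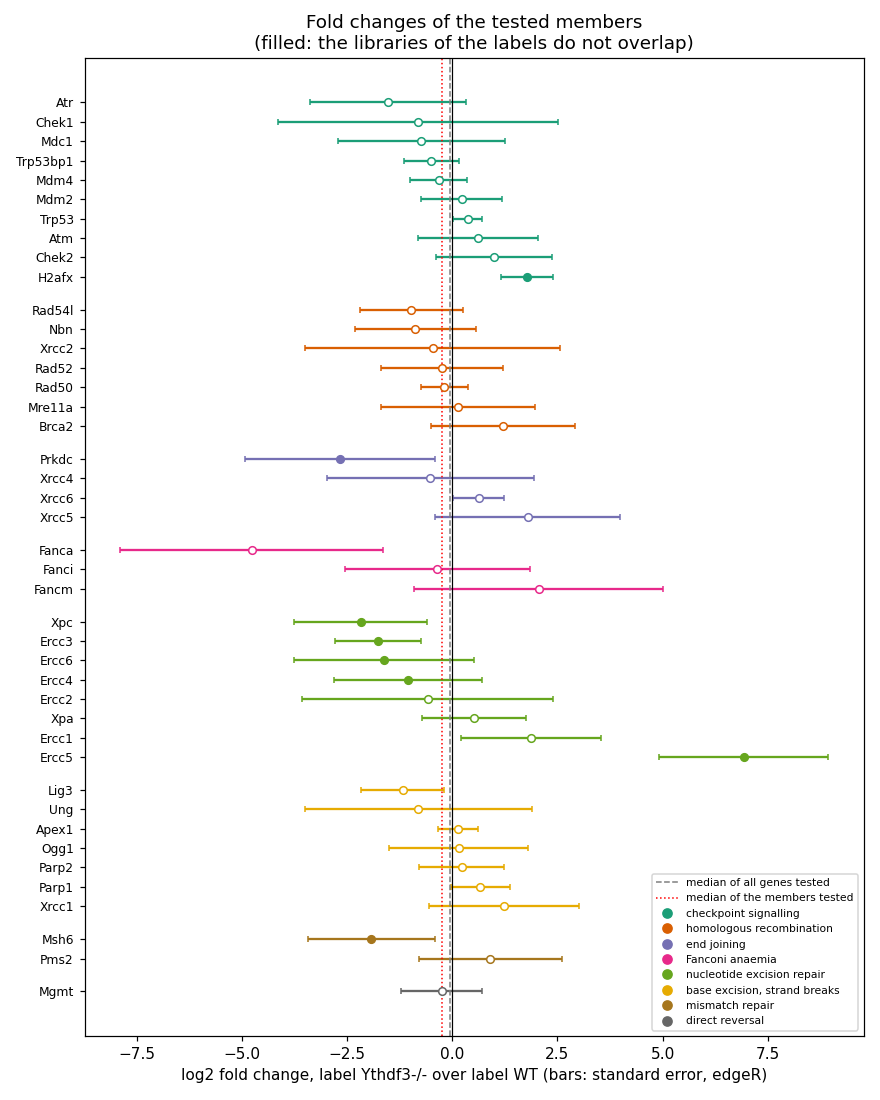
Fitted log2 fold change of the 42 tested members, label Ythdf3-/- over label WT, with its standard error from edgeR, by pathway; filled points are genes whose libraries do not overlap between the labels. Ercc5 at 6.93 stands far to the right of the rest, and the other members lie between -4.78 and 2.05.

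Checkpoint genes were well read, with 9 of 10 above the floor in every library, and 5 had fitted values above and 5 below 0 (median -0.05). Trp53, the transcription factor p53, stood at 531 and 355 CPM in the libraries labelled WT and at 557, 745 and 513 CPM in those labelled Ythdf3-/-. The labels overlapped, and the log2 fold change was 0.37 (SE 0.34; adjusted p = 0.9998, edgeR). Mdm2, the ubiquitin ligase that degrades p53 and is itself one of its targets, was read at 93.5 and 26.8 CPM under WT and at 126, 45.5 and 49.0 CPM under Ythdf3-/- (log2 fold change 0.22, SE 0.97). Its partner Mdm4 ranged from 57.4 to 182 CPM, with both extremes in the libraries labelled WT.

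H2afx encodes H2AX, the histone variant whose phosphorylated form marks breaks. It was read 1291 and 380 times under WT and 2098, 1341 and 1211 times under Ythdf3-/-, which is 77.5 and 42.4 CPM against 330.0, 148 and 173 CPM. Every library labelled Ythdf3-/- lay above both labelled WT, with means of 60.0 ± 24.9 CPM (SD, n = 2) and 217 ± 98.8 CPM (SD, n = 3). The log2 fold change was 1.77 (SE 0.62; adjusted p = 0.964 in edgeR), and DESeq2 gave an adjusted p of 0.175. The highest value was in the library labelled Ythdf3-/- 1, which also had the highest sums of erythroid and B cell markers and the second highest of proliferation markers. Their part in the result was not tested. Without that library the log2 fold change stayed above 0, as it did without any other single library (1.36 to 2.22). H2afx lies on chromosome 9 at 44334694 to 44336077 (GRCm38, plus strand).

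The apical kinases varied from library to library. Atm stood at 55.7 and 4.80 CPM under WT and at 38.1, 67.0 and 40.1 CPM under Ythdf3-/-. One library labelled WT was thus low and the other within the range of the rest (log2 fold change 0.62, SE 1.43). For Atr, the kinase of stalled replication forks, the values were 33.3 and 44.5 CPM against 6.61, 34.5 and 1.43 CPM (log2 fold change -1.53, SE 1.86). Chek1, which relays the ATR signal, was read 98 times in the library labelled WT 2, 90 times in that labelled Ythdf3-/- 2 and not at all in the other 3. Against the depth of those 3 libraries, a count of 0 allows up to 3 counts, or between 0.180 and 0.472 CPM, for counting error only. Its fitted log2 fold change of -0.82 had an SE of 3.33. The ATM relay Chek2 was present in all 5 libraries, from 3.35 CPM in that labelled WT 2 to 95.1 CPM in that labelled Ythdf3-/- 3. The break scaffolds Trp53bp1 and Mdc1 ranged from 50.7 to 143 CPM and from 1.56 to 52.7 CPM, each highest in the library labelled WT 1. Trp53bp1 shares 15.0% of its exon length with Tubgcp4 on the other strand.

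Homologous recombination was read in parts. The break-sensing complex was present in every library: Rad50 at 113 and 135 CPM under WT and at 89.2, 123 and 134 CPM under Ythdf3-/-, Mre11a between 2.09 and 49.2 CPM, and Nbn between 7.55 and 60.5 CPM. Nbn had a log2 fold change of -0.89 (SE 1.44) and its labels overlapped. Of Brca1, Brca2, Palb2 and Rad51c, only Brca2 passed the floor in every library. Brca1, which licenses resection, had 2 and 1 counts under WT and none under Ythdf3-/-, all at or below the floor. Brca2, the loader of the recombinase, was read at 10.3 and 18.2 CPM under WT and at 67.3, 20.4 and 17.5 CPM under Ythdf3-/-, with the high value in the library labelled Ythdf3-/- 1 (log2 fold change 1.20, SE 1.71, and 0.34 without that library). Palb2, which bridges the products of both, had between 1 and 19 counts, and Rad51c had 0 in all 5 libraries.

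Rad52, an annealing protein, had 2564 counts in the library labelled WT 1, 8 in that labelled WT 2 and 491, 552 and 459 in those labelled Ythdf3-/-. The libraries labelled Ythdf3-/- lay close together, at 77.2, 60.8 and 65.4 CPM, between the extremes of those labelled WT. Rad54l, a translocase that works with the recombinase, stood at 68.0 and 92.1 CPM under WT and at 47.3, 77.8 and 3.99 CPM under Ythdf3-/- (log2 fold change -0.98, SE 1.22). It shares 15.4% of its exon length with Lrrc41 on the other strand. Xrcc2, a paralogue of the recombinase, was read 740 times in the library labelled WT 1, 317 times in that labelled Ythdf3-/- 1 and at most 2 times in the others. For the list, 7 of 10 members were tested, 2 were fitted higher and 5 lower (median -0.25), and none was under 0.05 before adjustment.

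End joining had 1 of 5 members above the floor in every library. That member, Xrcc6, encodes the DNA-end binding subunit Ku70 and stood at 96.8 and 95.1 CPM under WT and at 214, 76.4 and 183 CPM under Ythdf3-/- (log2 fold change 0.62, SE 0.62). Xrcc5, which encodes its obligate partner Ku80, did not follow it: 43 and 179 counts under WT and 2, 593 and 428 under Ythdf3-/- (log2 fold change 1.79, SE 2.21). The library labelled Ythdf3-/- 1 thus had the highest Xrcc6 level and the lowest Xrcc5 level of the 5. Prkdc, the catalytic subunit of the kinase that Ku recruits, was read 431 and 310 times under WT and 20, 106 and 1 times under Ythdf3-/-. That is 25.9 and 34.6 CPM against 3.15, 11.7 and 0.143 CPM, so that the labels did not overlap. The log2 fold change of Prkdc was -2.67 (SE 2.26; adjusted p = 0.9998 in edgeR), and -4.28 without the library labelled Ythdf3-/- 2. Xrcc4, the ligase cofactor, had 418 counts in the library labelled WT 1 and 1 in that labelled WT 2, with 31, 145 and 44 under Ythdf3-/-. Lig4, the ligase itself, had 5 counts in each of the libraries labelled WT 1 and Ythdf3-/- 3 and none elsewhere. Of the 4 tested members 2 were fitted higher and 2 lower (median 0.05).

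The Fanconi anaemia pathway was thinly read, with 1 of 4 members above the floor in every library. Fanca, a core complex subunit, had 637 counts in the library labelled WT 1, 13 in that labelled Ythdf3-/- 1 and at most 1 in the rest. Its fitted log2 fold change of -4.78 (SE 3.13; adjusted p = 0.9998 in edgeR) rested on 1 library and was 2.40 without it. Fanca shares 10.5% of its exon length with Zfp276 on the other strand, whose counts were 1415, 6, 405, 235 and 3 in the order of the labels. Fancm, the translocase that brings the core complex to DNA, was read 555 times in the library labelled Ythdf3-/- 2, 77 times in that labelled WT 2 and between 1 and 12 times in the others (log2 fold change 2.05, SE 2.96).

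Fancd2 and Fanci form the pair that the core complex marks with ubiquitin. They were unequal here: Fancd2 had 1 count in all 5 libraries together, whereas Fanci stood at 17.6 and 13.1 CPM under WT and at 13.2, 0.661 and 24.7 CPM under Ythdf3-/- (log2 fold change -0.35, SE 2.21). Fanci shares 16.0% of its exons with Polg on the other strand, and Polg was also lowest in the library labelled Ythdf3-/- 2, with counts of 772, 291, 414, 17 and 383. Fitted values were above 0 for 1 and below 0 for 2 of the 3 tested members (median -0.35).

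Nucleotide excision repair was split: 3 of 8 were fitted higher and 5 lower (median -0.82). The labels did not overlap for 5 of its 8 genes, 1 higher and 4 lower under Ythdf3-/-. Over all 42 tested members that held for 8 (19.0%), and over all genes for 20.7%. The list is small and was not tested as a set. Ercc5 encodes XPG, the endonuclease that cuts on one side of the damaged strand. It was read 2 and 8 times in the libraries labelled WT and 244, 1108 and 267 times in those labelled Ythdf3-/-. In CPM this is 0.12 and 0.89 against 38.4, 122 and 38.1, with means of 0.506 ± 0.546 (SD, n = 2) and 66.2 ± 48.4 (SD, n = 3). The log2 fold change of Ercc5 was 6.93 (SE 2.01; adjusted p = 0.964 in edgeR). DESeq2 gave a log2 fold change of 6.99 with an adjusted p of 0.000109, so the call depends on the tool. Over the runs that left out 1 library the log2 fold change lay between 6.07 and 8.93. Ercc5 was read in both libraries with many Ythdf3 counts and in the 1 library labelled Ythdf3-/- with few.

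Ercc5 lies on chromosome 1 at 44147744 to 44181260 (GRCm38, plus strand) and shares no exon with another gene. Its upstream neighbour on the same strand, Bivm, was looked at after the values of Ercc5 were known. Bivm ends 2973 bases before the start of Ercc5, at 44118957 to 44144770, and was read 295 and 383 times under WT and 2, 5 and 8 times under Ythdf3-/-. The pair thus ran opposite to each other in all 5 libraries. The log2 fold change of Bivm was -5.58 (SE 2.33; adjusted p = 0.983 in edgeR), and DESeq2 gave an adjusted p of 0.123. How the counting assigned reads between these neighbours was not tested.

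**Figure D4:**
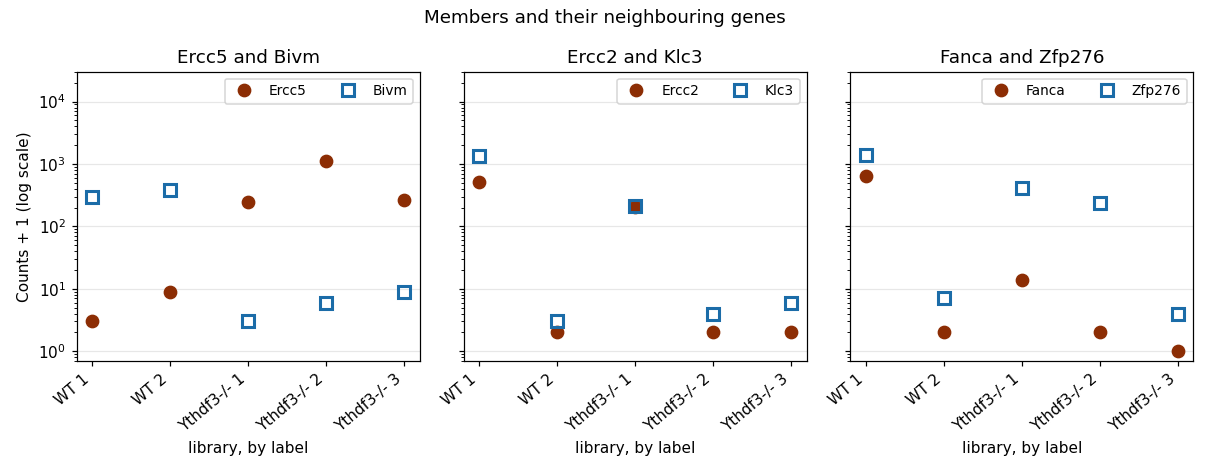
Counts plus 1 (log axis) of 3 members (filled circles) and of a neighbouring gene (open squares) in each library, by label. Ercc5 and Bivm are high in opposite libraries, whereas Ercc2 and Klc3, whose exons overlap, are both high in the libraries labelled WT 1 and Ythdf3-/- 1 and both at most 5 counts elsewhere.

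The promoter of Ercc5 is shown because this gene had the largest fitted difference of the members, and that of Trp53 because it was among the steadiest and best read. Both are the 250 bases before the RefSeq gene start on the plus strand (GRCm38.p6), at chr1:44147494-44147743 for Ercc5 and chr11:69580109-69580358 for Trp53. Capitals mark letters of a CCAAT box, of an E2F site or of a cell cycle homology region (CHR) on either strand.
Ercc5: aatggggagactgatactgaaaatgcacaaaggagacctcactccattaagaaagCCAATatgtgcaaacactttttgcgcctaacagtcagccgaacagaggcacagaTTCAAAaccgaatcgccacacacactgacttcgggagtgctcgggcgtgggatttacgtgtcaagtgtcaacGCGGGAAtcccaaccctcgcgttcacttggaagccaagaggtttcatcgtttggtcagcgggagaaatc
Trp53: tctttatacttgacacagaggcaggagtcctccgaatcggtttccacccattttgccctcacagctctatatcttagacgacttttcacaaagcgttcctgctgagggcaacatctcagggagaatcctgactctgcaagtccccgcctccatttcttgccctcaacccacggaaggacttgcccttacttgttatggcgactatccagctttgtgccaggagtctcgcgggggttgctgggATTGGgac
The Ercc5 window holds the E2F letters TTCCCGC on the minus strand at -69 to -63, CCAAT on the plus strand at -195 to -191 and the CHR letters TTTGAA on the minus strand at -141 to -136, which do not overlap. The Trp53 window holds CCAAT on the minus strand at -8 to -4 and neither of the others.

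Promoter windows of 300 bases, from 250 before to 50 after the start, were found for 39 of the 47 members, as 44 windows. E2F letters (TTCCCGC and the same run with CG, GC or GG in place of the CC after its TT, on either strand) were in 21 of the 44 windows (47.7%), against 16.5% of 10758 windows of genes tested and 9.57% of all 32851 windows. E2F factors are known to drive genes of DNA replication and S phase. CCAAT was in 52.3% of the members' windows, against 37.5% of those of genes tested. The CHR letters (TTTGAA or TTCGAA) were in 6.82%, against 14.1%. Median GC content was 58.2% for the members and 60.7% for genes tested. A match is a description of the sequence and says nothing on whether a factor binds there.

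Of the other nucleotide excision genes, Xpc, which finds the lesion, stood at 49.3 and 91.9 CPM under WT and at 9.28, 1.21 and 40.3 CPM under Ythdf3-/-. The labels did not overlap, and the log2 fold change of Xpc was -2.18 (SE 1.58; adjusted p = 0.9998 in edgeR), and -3.84 without the library labelled Ythdf3-/- 3. Ercc3, a helicase of the TFIIH complex that opens the strands, was read at 138 and 48.5 CPM against 16.8, 42.4 and 27.1 CPM (log2 fold change -1.77, SE 1.03; adjusted p = 0.9998 in edgeR). Its lowest value under WT and its highest under Ythdf3-/- were close together, and without the library labelled WT 1 the value was -0.88.

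Ercc4, which encodes the XPF nuclease, had 968 and 528 counts under WT and 268, 425 and 1 under Ythdf3-/-. Its obligate partner Ercc1 showed another order: 537 and 7 counts under WT and 597, 599 and 196 under Ythdf3-/-. Ercc6, the CSB protein of transcription-coupled repair, had 627 and 168 counts against 74, 153 and 2. So the pair that forms 1 nuclease was read together in the libraries labelled WT 1, Ythdf3-/- 1 and Ythdf3-/- 2, while Ercc1 was all but missing in that labelled WT 2 and Ercc4 in that labelled Ythdf3-/- 3.

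Xpa, which verifies the lesion, ranged from 18.0 to 63.7 CPM with overlapping labels. Ercc2, the second helicase of TFIIH, was read 514 times in the library labelled WT 1, 203 times in that labelled Ythdf3-/- 1 and once in each of the others. Klc3, on the other strand, shares 17.8% of the exon length of Ercc2 and was read 1342 and 213 times in those same libraries and between 2 and 5 times in the rest. The antisense gene Gm26852 overlaps another stretch, and 42.7% of the exon length of Ercc2 is shared in all. Smart-seq2 libraries do not mark strand, so reads in the shared stretches cannot be told apart.

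Base excision and single-strand break repair was also well read, with 6 of 7 members above the floor in every library. Fitted values were above 0 for 5 members and below for 2 (median 0.15), and none was under 0.05 before adjustment. Apex1 was read at 182 and 360 CPM under WT and at 213, 355 and 390 CPM under Ythdf3-/-. Parp1, the sensor of strand breaks that makes poly(ADP-ribose), stood at 49.6 and 88.4 CPM under WT and at 142, 132 and 77.4 CPM under Ythdf3-/-. The labels overlapped for Parp1 through the library labelled Ythdf3-/- 3 (log2 fold change 0.67, SE 0.69). Parp2, its relative, ran from 16.8 CPM in the library labelled WT 2 to 244 CPM in that labelled Ythdf3-/- 2.

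Xrcc1, the scaffold of single-strand break repair, had 775 and 5 counts under WT and 338, 936 and 101 under Ythdf3-/- (log2 fold change 1.23, SE 1.78). Without the library labelled WT 1 the value for Xrcc1 was 6.52, and without that labelled WT 2 it was 0.25. Lig3, the ligase that XRCC1 holds, was highest where Xrcc1 was lowest: 32.0 and 161 CPM under WT and 68.4, 44.1 and 25.1 CPM under Ythdf3-/- (log2 fold change -1.18, SE 0.99). Lig3 shares 25.1% of its exon length with Rffl on the other strand. Ogg1, the glycosylase of oxidised guanine, stood at 24.0 and 21.6 CPM under WT and at 10.5, 36.3 and 33.8 CPM under Ythdf3-/- (log2 fold change 0.15, SE 1.66). It shares 10.6% of its exon length with Camk1 on the other strand, which had between 948 and 3795 counts. Ung, the uracil glycosylase, was the exception in this list, with 132 and 421 counts under WT, 321 in the library labelled Ythdf3-/- 1 and 2 and 0 in the others. Its 2 highest levels were in the libraries with the highest sums of proliferation markers, a link that was not tested.

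Mismatch repair is represented by 2 members. Msh6, which recognises mismatches, was read 2391 and 1490 times under WT and 1, 397 and 611 times under Ythdf3-/-. At 144 and 166 CPM against 0.157, 43.7 and 87.1 CPM, the labels did not overlap (log2 fold change -1.93, SE 1.50; adjusted p = 0.9998 in edgeR). Pms2, which cuts the strand to be replaced, ran the other way in single libraries: it was highest, at 186 CPM, where Msh6 had 1 count, and lowest, at 0.441 CPM, in the library labelled Ythdf3-/- 2. Its log2 fold change was 0.90 (SE 1.70). Mgmt, which removes alkyl groups from guanine directly, stood at 38.9 and 101 CPM under WT and at 43.3, 109 and 35.9 CPM under Ythdf3-/- (log2 fold change -0.26, SE 0.96), and the labels overlapped.

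As a sum the repair genes took a similar share of each library, a sum in which highly read genes weigh most. Trp53 alone held between 355 and 745 CPM. Summed over the 47 genes, both libraries labelled WT held 2945 and 2502 CPM and those labelled Ythdf3-/- 1, 2 and 3 held 3102, 3216 and 2685 CPM. Among the 42 tested members, the library labelled WT 2 held the lowest level for 28.6% and the highest for 23.8%, against 23.7% and 22.9% of all genes tested. By pathway the sums ran together for homologous recombination (319 to 460 CPM under WT and 307 to 388 CPM under Ythdf3-/-). Mismatch repair had sums under Ythdf3-/- of 186, 44.2 and 136 CPM, beside 190 and 199 CPM under WT. Fanconi sums were 56.6 and 21.7 CPM under WT and 15.4, 61.9 and 25.4 CPM under Ythdf3-/-. For nucleotide excision repair they were 396 and 238 CPM against 268, 359 and 198 CPM.

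The wider pathways were described through 122 other genes in 10 lists, of which 95 were tested. No gene of them passed in edgeR, 48 were fitted higher and 47 lower, and the median was 0.01. Before adjustment 4 of the 95 were under 0.05 (Rad9a, Bard1, Fance and Fancf), against 541 of all 11146 genes tested (4.85%). DESeq2 called 1 of the 95, Fance, against 259 of all genes (2.32%). Rad9a, part of the clamp that activates ATR, was read at 58.6 and 42.3 CPM under WT and at 98.3, 214 and 195 CPM under Ythdf3-/- (log2 fold change 1.66, SE 0.65; adjusted p = 0.964 in edgeR). Bard1, the partner of BRCA1, had 27 and 211 counts under WT and 0 in all 3 libraries labelled Ythdf3-/-. Taking 3 counts per library as the floor for the latter, the WT mean was 30.7 times that floor (adjusted p = 0.964 in edgeR). That ratio covers counting error under Ythdf3-/- alone. The WT mean of 12.6 CPM (SD 15.5, n = 2) rested on 1.62 and 23.5 CPM, so the ratio is not a lower limit.

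Both Fance and Fancf belong to the Fanconi core complex. Fance had 1062 and 36 counts under WT and 2, 0 and 0 under Ythdf3-/- (log2 fold change -8.28, SE 3.08; adjusted p = 0.964 in edgeR and 0.0390 in DESeq2). Fancf had 19 and 270 counts against 0, 1 and 1 (log2 fold change -7.43, SE 2.97; adjusted p = 0.964 in edgeR). Further core complex genes were looked up after these values were seen. Fancg had 1145 and 8 counts under WT but 378, 262 and 204 under Ythdf3-/-. Fancc (905 and 581 under WT) and Fancl (606 and 481) were read in all 5 libraries, and Fancb was at 0 in all. Over the 13 other Fanconi genes, 11 were tested, 3 fitted higher and 8 lower (median -0.42).

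Among the remaining lists, other nucleotide excision genes had 9 of 14 fitted higher (median 0.44), among them Ddb1, a lesion sensor subunit, with a log2 fold change of 1.11 (SE 0.61). Other base excision genes had 8 of 12 fitted higher (median 0.59). Other checkpoint genes had 10 of 15 fitted lower (median -0.56), and translesion synthesis, which copies past lesions, had 5 of 8 fitted lower (median -0.60). Rev1, the scaffold of translesion polymerases, was read at 126 and 44.8 CPM under WT and at 8.65, 14.1 and 28.4 CPM under Ythdf3-/- (log2 fold change -2.41, SE 1.21; adjusted p = 0.983 in edgeR). Polh, the polymerase that passes ultraviolet damage, had 299 and 593 counts against 25, 123 and 32, and the labels did not overlap for either. None of these lists held a gene past adjustment in edgeR.

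**Figure D5:**
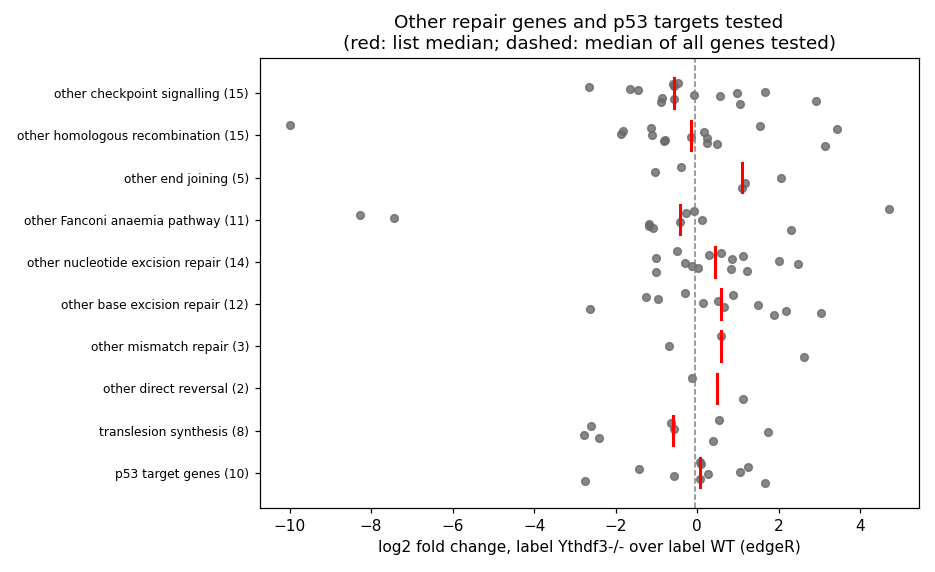
Fitted log2 fold changes (label Ythdf3-/- over label WT, edgeR) of the tested genes of the 10 other lists, 1 point per gene, with the median of each list. Medians lie between -0.60 and 1.11, and the lowest point is Bard1, whose fitted value depends on the prior count because 1 label is at 0.

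Of 23 target genes of p53 10 were tested, 7 fitted higher and 3 lower, with a median of 0.08. Cdkn1a, the p21 inhibitor of cyclin-dependent kinases, had 1013 counts in the library labelled WT 1, 226 in that labelled Ythdf3-/- 1, 4 in that labelled WT 2 and 0 in the others. The death gene Bax was steady, at 176 and 219 CPM under WT and at 255, 256 and 163 CPM under Ythdf3-/-. Ccng1 stood at 29.4 and 30.6 CPM under WT and at 112, 74.0 and 42.6 CPM under Ythdf3-/-, without overlap (log2 fold change 1.26, SE 1.01; adjusted p = 0.9998 in edgeR). Pmaip1, Perp and Eda2r were at 0 in all 5 libraries.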

How the data were processed

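The authors deposited 1 table of raw read counts, with a column for each of 5 libraries, and every analysis starts from that count. Reads were handled with HISAT2 2.2.1 and HTSeq 0.12.4, on mm10, per the submitters' processing notes. Not given in the sources used here are the annotation, the strand setting and what was done with multiply mapped reads. Groups follow the labels (2 WT, 3 Ythdf3-/-), whose libraries come from different mice. Counts were tested in R 4.3.3 with edgeR 4.0.16 (filterByExpr by group, TMM, robust quasi-likelihood fit, Benjamini-Hochberg over all 11146 genes tested, 0.05), after a check on simulated data. DESeq2 1.42.0 and limma 3.58.1 (voom), other scalings, filters, the replicate number as a block and leaving out libraries were alternatives. CPM is a count divided by its library total. Exon lengths, overlaps and positions come from GENCODE M21 (GRCm38) and promoters from RefSeq. The members and lists were chosen with earlier results of these data known. Fold changes with SE are named for 12 preset members and for the 3 lowest p of each member list, and for the 2 lowest p of each other list. A few other genes are given as counts or CPM, and Bivm, Fancb, Fancc, Fancg, Fancl and genes with overlapping exons were looked at after seeing values. Counting intervals cover counting error only, since PCR duplicates could not be removed without molecule identifiers.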

Additional observations from a re-analysis of the deposited data

How the results depend on the processing

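Of 25 named members with a fitted value, 14 kept their direction in every alternative run, H2afx and Ercc5 among them, and 11 changed sign somewhere. Where labels do not overlap, as for these 2, leaving out libraries cannot turn the direction. Where no cause is named, the cause was not tested. All genes past an adjusted p of 0.05 numbered 21 with no filter on low counts, 259 in DESeq2 (1 of them a member), 0 to 1 without single libraries (1 without that labelled WT 1) and 7 without those labelled Ythdf3-/- 2 and 3. Members under an unadjusted 0.05 numbered 1 to 7 without single libraries: 7 without that labelled WT 1, against 7.96% of all genes, and 1 without that labelled WT 2 or Ythdf3-/- 2. The members' median ran from -0.21 to 0.44 in those runs, the last without the library labelled WT 1, where that of all genes was 0.31. Members with labels that do not overlap numbered 13 to 25 without single libraries (31% to 59.5% of those tested, beside 33.3% to 52.6% of all genes), 26 without those labelled WT 2 and Ythdf3-/- 1 (66% of all genes) and 29 without those labelled Ythdf3-/- 2 and 3 (66.7%), since fewer libraries overlap less often. Log2 fold changes without single libraries spanned 0 for Mdm2 (-0.39 to 1.33), Atm (-0.24 to 3.21), Chek1 (-1.82 to 8.02), Fanca (-5.78 to 2.40), Fanci (-1.22 to 0.21), Lig3 (-1.94 to 0.48), Ogg1 (-0.15 to 0.56), Pms2 (-0.75 to 1.49) and Mgmt (-0.94 to 0.66). They kept their sign but moved for Xrcc1 (0.25 to 6.52), Xrcc5 (0.95 to 4.0), Fancm (1.17 to 4.79), Brca2 (0.34 to 1.72), Atr (-3.37 to -0.99), Prkdc (-4.28 to -2.10), Xpc (-3.84 to -1.57), Ercc3 (-2.29 to -0.88), Nbn (-1.61 to -0.42), Rad54l (-1.73 to -0.43) and Msh6 (-2.88 to -1.31). Leaving out WT 2 and Ythdf3-/- 1 together (by label), which was decided once the data had been seen, turned the sign for Mdm2 (-1.04), Atm (-0.12), Chek1 (8.73), Lig3 (0.051), Pms2 (-0.96) and Mgmt (0.84). Without those labelled Ythdf3-/- 2 and 3, chosen likewise, it turned for Xrcc5 (-5.23), Fancm (-4.91) and Ogg1 (-1.21), and limma voom turned Mdm2 (-0.11), Fancm (-0.078), Pms2 (-1.88) and Mgmt (0.10). The replicate block, a fit with the label's replicate number as a term, called 0 genes and left 2.56% of all genes and 3 members (H2afx, Ercc5 and Msh6) under an unadjusted 0.05. It turned Xrcc5 (-0.57), Ogg1 (-0.30), Pms2 (-2.00) and Mgmt (0.051). Deviations of same-numbered libraries correlated at -0.00430 and 0.00939 across genes, so the numbers were not taken to pair mice. At 6357862 counts, the lowest total, 3 counts are 0.472 CPM. Whether depth accounts for a gene at 0 was not tested; Chek1 was at 0 in the deepest library and read 98 and 90 times in those labelled WT 2 and Ythdf3-/- 2.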
